A study of Mus musculus with 18 samples.

Results

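mmu-miR-709, a mouse microRNA, was the subject of 35739 of the 1153545 chimeric reads recovered by CLEAR-CLIP from cultured mouse keratinocytes, on 4640 distinct target positions of 872381 positions for all miRNAs. Its reads were taken as all entries whose miRNA name is mmu-miR-709. It was selected on its measured share of reads, which is in excess in the first of 2 sets of libraries, so that excess is given here as a description with no test. Set 1 held 3 libraries of miR-200 double knockout (DKO) keratinocytes and 6 libraries of keratinocytes with K14-Cre only, a keratin 14 promoter construct active in basal keratinocytes. Set 2 held 3 DKO libraries, 3 libraries of miR-200 inducible cells treated with doxycycline (3 ug/ml, 24 hours), and 3 libraries of the inducible cells without it. All cells were grown in low-calcium medium, as 1 dish per library, and Argonaute 2 was precipitated after cross-linking with UV light of 254 nm at 300 mJ/cm2. The labels do not say how many animals or clones the cultures came from, or whether the inducible cells carry other alleles.

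A microRNA guides Argonaute proteins to RNAs that pair with its 5′ part, the seed, and in most cases lowers their stability or translation. CLEAR-CLIP ligates the miRNA to the RNA held in the same Argonaute complex, so that 1 chimeric read names both partners. Here a position means 1 combination of chromosome, start, end and strand of the target part, and a site is a group of overlapping miR-709 targets on 1 strand, joined over all pools. Each read also carries a random 4-base barcode. miR-709 has been described in mouse as an abundant, partly nuclear miRNA.

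The libraries of each group lie together in 1 file with no library names, so each group was 1 pooled sample, no test between groups was possible, and every interval below is an exact 95% interval for counting error alone. The pools held 48662 to 419117 chimeric reads, and all pools of a set shared 1 sequencing lane while the 2 sets ran on different flow cells. The miR-200 family, the target of the knockout, held 0.160% and 0.360% of reads in the DKO pools of sets 1 and 2, 9.04% in the induced pool, and 3.2% and 6.68% in the set 1 control and uninduced pools. Keratinocyte miRNAs (miR-203-3p, miR-205-5p and miR-31-5p) held 7.26% to 15.0% of reads, and the 4 blood miRNAs examined had 0 to 6 reads a pool. Mesenchymal miRNAs held 0.00286% to 0.0520%. The endothelial miR-126a-3p held 0.00371% to 0.0422%, with its highest shares in induced (0.0422%) and uninduced (0.0408%) cells. Muscle miRNAs held 0.00127% to 0.00928% and the liver miRNA 0.000476% to 0.00616%.

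A target of miR-709 whose sequence could be shown lies at the start of Gramd1a, which encodes a cholesterol transfer protein of the endoplasmic reticulum. It is shown because it is the one target for which sequence was at hand. The sequence of miR-709 was not at hand, so neither pairing nor likeness between it and these bases was examined. The 79 bases from chr7:31151217-31151295 (plus strand, GRCm38, from RefSeq) hold the target part of the commonest position in capitals.
Gramd1a: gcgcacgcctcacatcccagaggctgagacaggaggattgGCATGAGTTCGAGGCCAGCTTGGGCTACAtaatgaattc
The position in capitals, chr7:31151257-31151285, had 12 reads, of which 1 came from the set 1 DKO pool and 11 from the set 1 control pool. The whole site had 16 reads on 5 positions, and all 16 began at the same base. Gramd1a is transcribed from the minus strand, opposite to the target part. These 5 positions are 0.108% of the 4640, so they are an example and not a summary of the targets.

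miR-709 was the leading miRNA of the chimeric reads in set 1 and a minor one in set 2. Its share of reads was 12.5% (12.2 to 12.8) in set 1 DKO cells and 12.4% (12.2 to 12.5) in set 1 control cells. In set 2 its share was 0.960% (0.919 to 1.00) in DKO cells, 1.01% (0.983 to 1.04) in induced cells and 1.08% (1.04 to 1.12) in uninduced cells. The pools of a set lay close together, and the difference between the sets is the value on which this miRNA was selected. By reads its rank among all miRNAs was 1 in both pools of set 1, and 23, 28 and 24 in the DKO, induced and uninduced pools of set 2.

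Counted by distinct positions, the share was smaller in every pool. It was 2.85% (2.68 to 3.02) in set 1 DKO cells and 2.82% (2.73 to 2.92) in set 1 control cells. It was 0.299% (0.274 to 0.325) in set 2 DKO cells, 0.258% (0.242 to 0.276) in induced cells and 0.287% (0.267 to 0.308) in uninduced cells. By this count its rank was 8 in DKO cells and 9 in control cells of set 1, and between 60 and 74 in the pools of set 2. The gap between both counts reflects the number of reads on each position, which was 5.65, 6.03, 3.71, 4.75 and 4.56 for miR-709 in the set 1 DKO, set 1 control, set 2 DKO, induced and uninduced pools. All other miRNAs together had 1.15 to 1.24 reads per position. Among miRNAs with at least 500 reads in a pool, miR-709 was first in this measure in the set 1 DKO pool and second to miR-5099 (18.5 to 24.5 reads per position) in the other 4. The set 1 DKO pool had 22 such miRNAs, with let-7c-5p next at 1.42, and the others had 50 to 104. These ranks are therefore not over the same miRNAs.

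**Figure D1:**
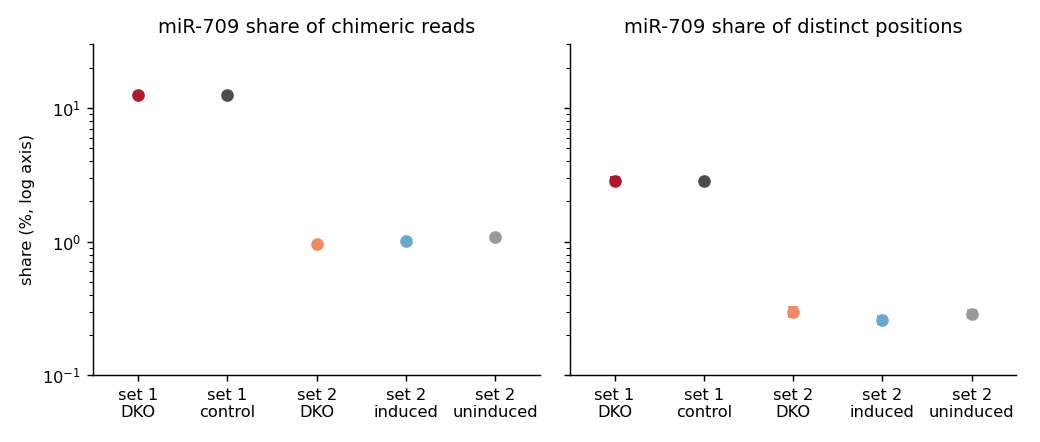
Share of miR-709 in each pool (percent, log axis), of all chimeric reads at left and of all distinct positions at right, with exact 95% counting intervals, most of them narrower than the points. Both pools of set 1 lie near 12.5% of reads and 2.8% of positions, and the 3 pools of set 2 lie near 1% of reads and 0.3% of positions.

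With every read counted, the miR-709 share moved by less than 2-fold with the knockout and the induction. In set 1 the ratio of the DKO share to the control share was 1.01 (0.983 to 1.04), within counting error of 1. In set 2 the DKO share was 0.890 of the uninduced share (0.842 to 0.941), and the induced share was 0.938 of it (0.897 to 0.982). Both set 2 ratios were below 1 beyond counting error, but no ratio reached 2-fold. As background, 6.41% of 562 miRNAs were at least 2-fold higher and 16.7% at least 2-fold lower in set 1 DKO cells, 11.3% and 11.1% of 371 in set 2 DKO cells, and 2.61% and 1.43% of 421 in induced cells. Ordered from the highest, the miR-709 ratio ranked 180 of 562, 221 of 371 and 252 of 421, and the median ratio of all miRNAs was 0.712, 1.01 and 0.979 in the same comparisons. The set 1 control share was 11.5 times the set 2 uninduced share (11.0 to 11.9), which is the contrast that chose this miRNA. In that contrast 61.3% of 649 miRNAs were at least 2-fold higher, with a median ratio of 4.53, and miR-709 had rank 120. Set, control cells and sequencing run coincide and cannot be told apart.

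Part of the reads of a pool recur in another pool of the same lane with the same position and barcode. For miR-709 this held for 57.3% of reads in set 1 DKO cells, 17.5% in set 1 control cells, 38.3% in set 2 DKO cells, 28.1% in induced cells and 32.8% in uninduced cells. For the other miRNAs together it was 3.52% to 11.7%. Without such reads the ratio of the DKO to the control share in set 1 was 0.600 (0.576 to 0.626), against 1.01 with them. A recurring read of set 1 lies in both of its pools, so leaving such reads out takes the same number from each. That weighs more on the smaller DKO pool, so 0.600 cannot show a lower share in DKO cells. Counting each position once gave a set 2 DKO ratio of 1.04 (0.931 to 1.17) in place of 0.890. The direction of the set 2 DKO difference therefore depended on whether reads or positions were counted.

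miR-709 reads were gathered on few sites. They formed 2556 sites, of which 20 held 63.2% of all reads and 1 alone held 8.28%. The share on these 20 sites was 68.7% in set 1 DKO cells, 58.1% in set 1 control cells, 68.0% in set 2 DKO cells, 70.8% in induced cells and 71.1% in uninduced cells. In contrast, the 20 leading sites held 4.81% of the reads of miR-706, 6.69% of miR-3470b, 12.1% of miR-31-5p and 35.9% of miR-21a-5p, the miRNAs taken for comparison. miR-706 and miR-3470b were also more abundant in set 1 than in set 2, and miR-31-5p and miR-21a-5p are abundant miRNAs of keratinocytes. At the other end, 1568 sites had a single read, and 1864 sites (72.9%) were seen in 1 pool only, with 6.51% of reads. The 86 sites seen in all 5 pools (3.36% of sites) held 81.6% of reads.

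The most crowded site, chr4:130648450-130648500 on the minus strand, lies outside genes. It had 612 reads in set 1 DKO cells, 1469 in set 1 control cells, 160 in set 2 DKO cells, 441 in induced cells and 277 in uninduced cells. That was 7.35% to 10.4% of the miR-709 reads of each pool, on 19 positions in all.

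The second site, chr6:128799437-128799484 on the minus strand, lies in Gm34755, a long noncoding RNA gene of the plus strand. Its reads were 679, 1176, 286, 259 and 200 in the same order of pools. It was the leading site in both DKO pools, with 11.1% of reads in set 1 and 14.2% in set 2, against 5.88% in set 1 control, 6.10% in induced and 5.90% in uninduced cells.

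The third, chr9:110241824-110241869 on the plus strand, begins inside Rn4.5s-ps2 and runs past its end. Rn4.5s-ps2 is a pseudogene of 4.5S RNA, a short noncoding RNA of rodents that resembles the B1 repeat family. The site had 516, 1303, 135, 323 and 274 reads. The span of Rn4.5s-ps2 held 2 reads of other miRNAs over all pools. No miR-709 read lay on the annotated Rn4.5s gene itself, which also had 0 reads of other miRNAs, while 27 and 11 lay on the pseudogenes Rn4.5s-ps1 and Rn4.5s-ps3.

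Next came a site in Sltm, chr9:70554683-70554727 on the plus strand, with 395, 691, 200, 381 and 337 reads. Sltm encodes a nuclear RNA-binding protein related to scaffold attachment factors. The site of rank 5, chr12:119325151-119325195 on the minus strand, lies 1072 bases from Gm46331 and had 356, 552, 184, 251 and 247 reads.

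The sites of rank 6 and 10, both on chromosome 6 and both in long noncoding RNA genes, differed from these in how unevenly the pools held them. The site in LOC115490435, chr6:128843343-128843396 on the plus strand, had 68 reads in set 1 DKO cells, 1075 in set 1 control cells, 8 in set 2 DKO cells, 205 in induced cells and 170 in uninduced cells. The site in Gm52861, chr6:47739861-47739914 on the minus strand, had 8, 80, 14, 308 and 260. The remaining sites among the leading 10 lie outside genes on chromosomes 1, 16 and 13, with 1513, 1270 and 715 reads in all.

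Of the 20 leading sites, 11 lay outside genes, 692 to 84667 bases from the nearest one. A further 5 lay in noncoding RNA genes, 3 in protein-coding genes (Sltm, Morc1 and Niban1) and 1 in the pseudogene. All 20 were present in all 5 pools. At these sites miR-709 made up 95.2% to 99.9% of the reads of all miRNAs, so other miRNAs were nearly absent from them. By chromosome, 18.9% of miR-709 reads lay on chromosome 6, 15.1% on chromosome 9 and 11.5% on chromosome 4.

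**Figure D2:**
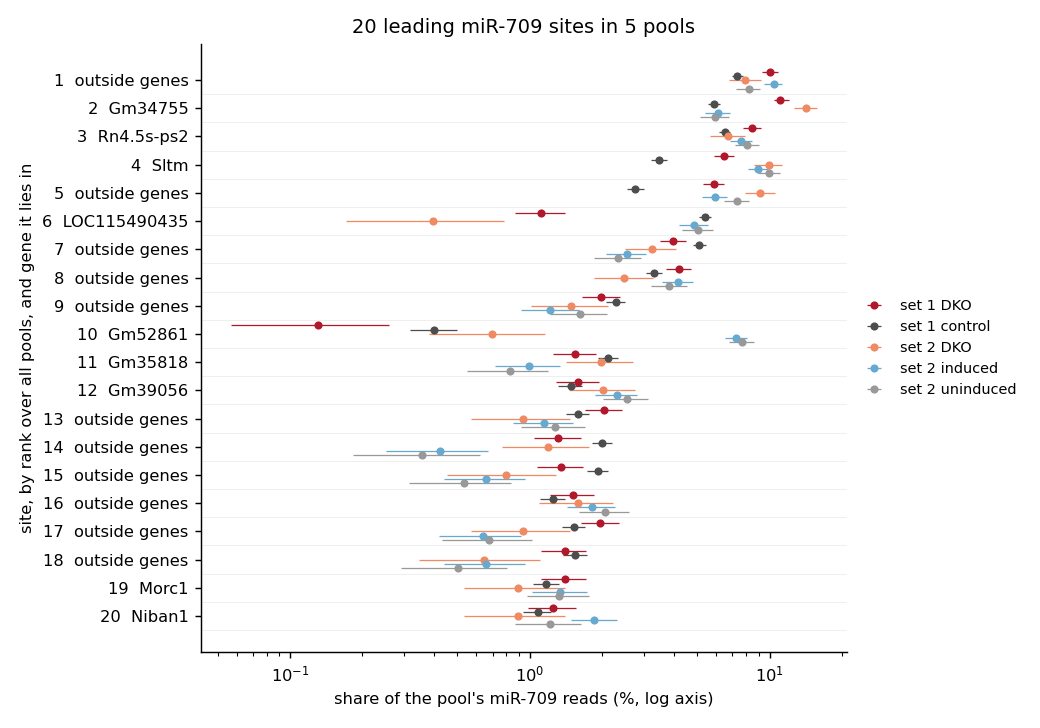
Share of the miR-709 reads of each pool (percent, log axis) at the 20 leading sites, ordered by reads over all pools and labelled by the gene they lie in, with exact 95% counting intervals. The leading site lies at 7.35% to 10.4% in every pool, while the sites in LOC115490435 and Gm52861 lie lower in the DKO pool than in the control pool of the same set.

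Within a site the reads began at 1 base and ended at many. At the 20 leading sites, a median of 99.8% of reads (99% to 100%) shared the commonest 5′ end of the target part, and the leading 5′ end was the same in every pool at all 20. Their commonest 3′ end was shared by a median of 33.3% (19.5% to 73.0%). The leading sites of miR-706 and miR-3470b also had 1 main 5′ end, with medians of 96.9% (33.3% to 100%) and 98.1% (87.2% to 100%). Those of miR-31-5p and miR-21a-5p did not, with medians of 37.1% (8.11% to 54.6%) and 38.3% (8.94% to 81.1%). The comparison miRNAs had commonest 3′ ends at medians of 51.1%, 62.2%, 49.6% and 30.8%, in the order miR-706, miR-3470b, miR-31-5p and miR-21a-5p.

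The same held down to smaller sites. Of the 105 miR-709 sites with at least 20 reads, 93 (88.6%) had 95% or more of their reads on 1 base at the 5′ end. For all other miRNAs together this was so for 386 of 2557 sites (15.1%), and for miR-31-5p for 2 of 428. It was not particular to miR-709, since it held for 64 of 79 miR-3470b sites (81%) and 17 of 27 miR-706 sites (63%). Of all other miRNAs together, 56.5% of sites had under 50% of their reads on the commonest 5′ end, against 0 sites of miR-3470b and 1 of miR-706. A single miR-709 site of this size was under 50%. That site, chr4:43954588-43954623 on the plus strand and outside genes, had 26 reads on 11 positions, 20 of them from set 1 control cells and 0 from set 2 DKO or uninduced cells. The target parts themselves were of ordinary length, with a median of 36 to 37 bases in each pool (20 to 91 over all), but fewer were very short or long, since 84.1% had 30 to 45 bases, against 45.4% for other miRNAs.

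**Figure D3:**
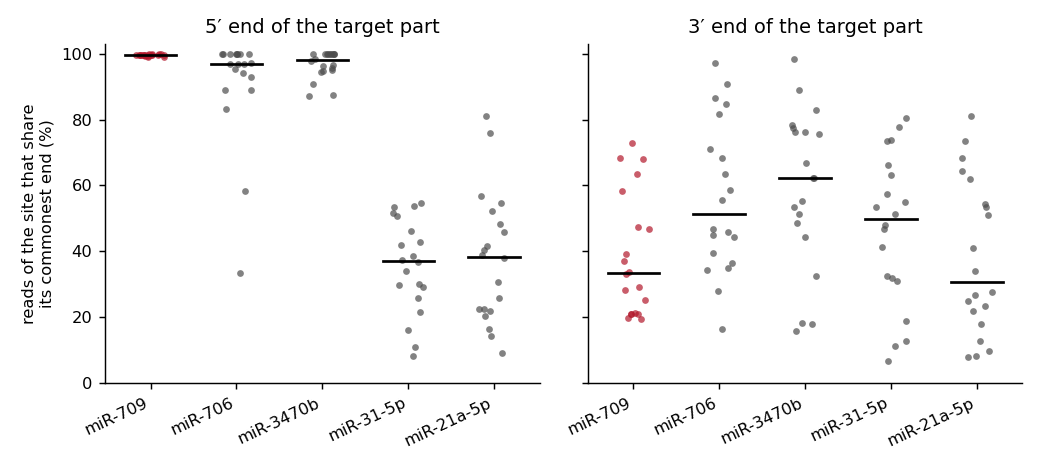
Percent of the reads of a site that share its commonest 5′ end (left) and 3′ end (right), for the 20 leading sites of miR-709 and of 4 other miRNAs, with 1 point per site and the median as a bar. miR-709 sites lie at 99% to 100% for the 5′ end, miR-31-5p sites at 8.11% to 54.6%, while their 3′ ends overlap.

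At the most crowded positions, reads with fully determined barcodes came close to the number possible in some pools. Without undetermined bases there are 256 barcodes, and within a file each position, strand and miRNA holds a given barcode at most once. The leading position of every pool, chr9:70554684-70554718 in Sltm, had 263 reads in set 1 DKO cells, 314 in set 1 control cells, 173 in set 2 DKO cells, 262 in induced cells and 255 in uninduced cells. They carried 233, 255, 169, 233 and 227 of the 256 barcodes, and the rest had a barcode with an undetermined base. The second position of every pool, chr12:119325157-119325194, had 260, 308, 152, 174 and 178 reads with 219, 256, 145, 167 and 175 of the barcodes. In set 1 control cells both were full or 1 short of it, so reads with determined barcodes could hardly have been more. The 59 and 52 reads there with an undetermined base fall outside this limit.

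The positions of rank 3 to 5 in each pool lay in sites already named. In set 1 control cells they were 2 positions of the Rn4.5s-ps2 site (271 and 255 reads) and 1 of the chromosome 4 site (257 reads). In the set 1 DKO pool 3 positions of the chromosome 4, Rn4.5s-ps2 and Gm34755 sites had 124 to 127 reads each. In set 2 DKO cells 2 positions of Gm34755 and 1 of Rn4.5s-ps2 had 50 to 54, and in induced and uninduced cells the Gm52861 site also entered, with 90 and 80 reads on its leading position.

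In set 1 control cells 31 miR-709 positions carried at least 128 barcodes, against 2 in each other pool. On these positions 98.3%, 36.4%, 94.2%, 87.6% and 85.9% of reads recurred in another pool of the lane, in the order set 1 DKO, set 1 control, set 2 DKO, induced and uninduced. On the remaining positions it was 53.5%, 9.02%, 27.6%, 21.3% and 25.0%. The more of the 256 barcodes 2 pools use at a position, the more of them coincide whether or not the molecules are shared, and how much of the recurrence this makes up was not tested. Such positions were not limited to miR-709, but they were a far smaller part of the positions of other miRNAs. In set 1 control cells 5 of 114154 positions of other miRNAs carried at least 128 barcodes, against 31 of 3318 for miR-709. In induced cells it was 31 of 345138 against 2 of 894. The 10 leading positions held 23.9%, 12.8%, 34.1%, 25.9% and 28% of the miR-709 reads, against 1.49% to 3.39% for miR-706, 2.62% to 9.57% for miR-3470b, 1.23% to 3.14% for miR-31-5p and 7.41% to 14.3% for miR-21a-5p. In set 1 control cells miR-21a-5p, at 14.3%, was above miR-709, at 12.8%.

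Many miR-709 targets lay outside annotated genes. By position, 33.1% (30.3 to 36.0) of them were outside genes in set 1 DKO cells, 24.4% (23.0 to 25.9) in set 1 control cells, 30.8% (26.9 to 34.8) in set 2 DKO cells, 27.2% (24.3 to 30.2) in induced cells and 28.3% (25.1 to 31.7) in uninduced cells. The other miRNAs had 7.37%, 6.61%, 4.80%, 4.61% and 4.97% of their positions outside genes, and in no pool did the intervals meet. By reads the miR-709 share outside genes was higher still, 47.0%, 43.8%, 40%, 38.5% and 37.1%. miR-706 came between, with 14.1% to 20.1% of its positions. Protein-coding genes held 55.5% to 68.0% of miR-709 positions and 84.9% to 87.3% of those of other miRNAs, and noncoding RNA genes held 6.60% to 10.6% and 2.52% to 3.46%. No miR-709 position lay in a mitochondrial or miRNA gene.

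The strand of a gene was known for part of them, for example for 472 of the 598 miR-709 positions in protein-coding genes in set 1 DKO cells. Within these genes, miR-709 targets lay on the gene's own strand less often than those of other miRNAs. The share on the gene's strand was 75.8% (71.7 to 79.6) in set 1 DKO cells, 83.1% in set 1 control cells, 84.7% in set 2 DKO cells, 84.5% in induced cells and 84.3% in uninduced cells. For other miRNAs together it was 96.8% to 98.5%. miR-706 was nearer to miR-709, with 88.7% to 92% by pool, and in set 2 its intervals met those of miR-709 (79.5 to 89.1 for miR-709 and 86.8 to 91 for miR-706 in DKO cells). Sites were also grouped by their reads. Of the 47 sites with at least 100 reads, 23 (48.9%, 34.1 to 63.9) lay outside genes, and of the 12 in protein-coding genes of known strand, 6 (50%, 21.1 to 78.9) were on the gene's strand. Of those with 10 to 99 reads, 21.3% (14.8 to 29.2) lay outside genes and 83.1% (73.3 to 90.5) were on the strand. Among the sites with 2 to 9 reads, 12.8% (10.6 to 15.3) lay outside genes and 88.8% (85.8 to 91.4) of those in such genes were on the gene's strand. The sites with 1 read had 22.3% (20.3 to 24.5) and 79.3% (76.5 to 81.9). By strand, the interval of the 12 crowded sites meets those of the 10 to 99 and 1 read groups.

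**Figure D4:**
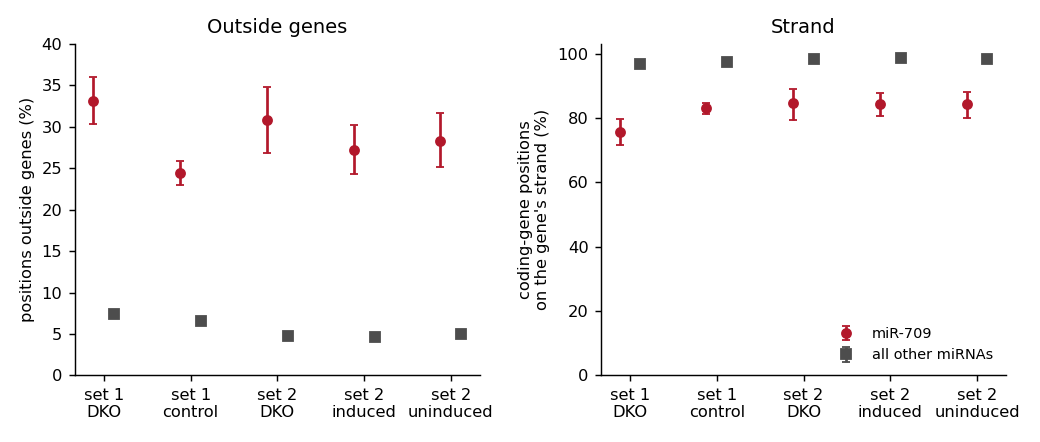
Percent of distinct positions outside RefSeq genes (left) and, of those in protein-coding genes of known strand, percent on the gene's strand (right), for miR-709 and all other miRNAs in each pool, with exact 95% counting intervals. miR-709 lies at 24.4% to 33.1% outside genes and 75.8% to 84.7% on the strand, other miRNAs at 4.61% to 7.37% and 96.8% to 98.5%.

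Over all pools 1692 genes had a miR-709 position, 738 had at least 2 and 213 at least 5. The 20 genes with the highest mean share of miR-709 positions were 12 protein-coding genes, 7 long noncoding RNA genes and the pseudogene Rn4.5s-ps2. All 20 had miR-709 positions in all 5 pools, and in each of them 1 site held at least 96.7% of the reads, so the count of positions in a gene is mostly a count of the 3′ ends of 1 site. Of the 16 with a known strand, the reads lay on the gene's strand in 8 and opposite to it in 8.

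Among the long noncoding RNA genes, Gm34755 led with a mean of 1.44% of miR-709 positions. Its positions numbered 21 in set 1 DKO cells, 31 in set 1 control cells, 10 in set 2 DKO cells, 9 in induced cells and 11 in uninduced cells, with 1 to 8 positions of other miRNAs in each. Gm52861 (mean 1.24%) had 5, 12, 5, 18 and 18 positions, and LOC115490435 (1.16%) had 13, 23, 7, 9 and 12. Gm35818 (0.891%), Gm39056 (0.597%), Gm40371 (0.563%) and Gm42306 (0.484%) followed, and the pseudogene Rn4.5s-ps2 had a mean of 1.12%. Reads ran opposite to the gene in Gm34755, Gm52861, LOC115490435 and Gm35818, and along it in Gm39056, Gm40371 and Gm42306. Gm40371 and Gm52861 lie either side of Rn4.5s on chromosome 6.

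Among the protein-coding genes, Slc9a9, a sodium and proton exchanger of endosomes, had the highest mean share, 0.856%. Its 365 reads all ran opposite to the gene. The centrosomal gene Cep112 (0.828%, 202 reads) and Niban1 (0.490%), a gene of the stress response, were also met on the opposite strand, as was Mrtfb (0.360%), which encodes a coactivator of serum response factor. Sltm (0.766%), Dab1 (0.706%), Syt6 (0.457%), Scaper (0.416%) and Cd9 (0.339%) were met on their own strand. Dab1 encodes an adaptor of Reelin signalling, Syt6 a synaptotagmin of membrane fusion, and Scaper a cyclin A-associated protein of the endoplasmic reticulum. Morc1 (0.816%), which acts in transposon silencing in male germ cells, Meikin (0.614%), a meiotic kinetochore gene, and Garre1 (0.494%), a Rac effector gene, had no strand in the annotation used.

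Cd9, a tetraspanin gene of the cell surface, looked unlike the rest. Its 26 miR-709 reads lay on 22 positions, counted in each pool, with 12 of these in set 1 control cells and 7 in uninduced cells and 1 in each other pool. Counted in the same way, other miRNAs had 267 positions in Cd9, and miR-709 made up 8.12% of its reads. In Sltm miR-709 made up 92.8% of reads, and in Gm34755 98.8%.

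Against the other miRNAs, the 10 genes with the largest excess of miR-709 positions were Rn4.5s-ps2, Gm40371, Gm35818, Syt6, Cep112, Gm39056, Meikin, Slc9a9, Morc1 and Gm52861, among genes with at least 20 miR-709 positions. Positions in this paragraph are counted in each pool and added, so 1 position can count up to 5 times. The sites in Rn4.5s-ps2, Gm40371 and Gm35818 had 15, 17 and 13 distinct positions. Added over the 5 pools, Rn4.5s-ps2 had 56 miR-709 positions and 2 of other miRNAs. Gm40371 had 34 and 2, Gm35818 had 44 and 3, Syt6 had 23 and 2, and Cep112 had 41 and 4. Slc9a9 had 49 and 7 and Gm52861 58 and 12. These genes were picked for this excess, so the values are a description.

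Genes cited as targets of miR-709 in other mouse tissues were almost without miR-709 reads, but too few were expected there to show a depletion. The list held Dleu2 with Mir15a and Mir16-1, the testis zinc finger gene Ctcfl, the myelination factor Egr2, the kinase gene Gsk3b, the Wnt regulator Apc and the mitochondrial transcription factor Tfam. Of these, Gsk3b alone had a miR-709 read, a single one in uninduced cells, beside 560 positions of other miRNAs. Dleu2 had 0 miR-709 reads beside 96 positions of other miRNAs, Apc 0 beside 199 and Tfam 0 beside 18. These positions are counted in each pool and added. The share of miR-709 positions over that of other miRNAs was 0.254 (0.00642 to 1.42) in Gsk3b. It was 0 in Dleu2 (0 to 5.57), Apc (0 to 2.66) and Tfam (0 to 32.3). Each interval includes 1, so miR-709 was not shown to be rarer in these genes than other miRNAs. Mir15a, Mir16-1, Ctcfl and Egr2 had no position of any miRNA. A floor of 3 reads equals 0.00839% of the 35739 miR-709 reads. The Mir709 gene itself, on chromosome 8 at 84086099 to 84086186, had 0 reads of any miRNA as a target.

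Few exact positions were shared with another miRNA, 23 of 4640 (0.496%, 0.314 to 0.743). miR-706 shared 0.328% of its positions and miR-3470b 1.34%, while miR-31-5p shared 5.06% and miR-21a-5p 6.09%. miR-21a-5p and miR-5110 shared 4 positions each with miR-709, and miR-205-5p, miR-23a-3p and miR-27a-3p shared 3 each. let-7a-5p, let-7f-5p, miR-186-5p, miR-193a-3p and miR-301a-3p shared 2 each. For miR-5110 this was 3.81% of its own positions, and for the other 9 at most 0.177%.

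Sites were then compared as shares of a pool's miR-709 reads, calling a site at a ratio of at least 2 either way with an interval that excludes 1, among sites with at least 20 reads in the compared pools. In set 1, 2 of 89 sites were higher in DKO cells and 10 were lower, where 4.07% and 7.27% of the sites of other miRNAs were. This balance turned with the counting, since 6 of 87 were higher and 4 lower without recurring reads, and 5 of 19 higher and 0 lower by positions. In set 2, 4 of 34 were higher in DKO cells and 2 lower, where 6.27% and 23.5% of the sites of other miRNAs were, and 0 of 5 were called either way by positions. Between induced and uninduced cells 0 of 42 sites were called, where 2.23% and 3.58% of other sites were, and all 42 ratios lay between 0.522 and 1.54. No p-value exists for these counts, since each pool is 1 sample.

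The LOC115490435 site was lower in DKO cells of both sets. Its share of miR-709 reads was 0.208 of the control share in set 1 (0.160 to 0.265) and 0.0791 of the uninduced share in set 2 (0.0336 to 0.159). Of the DKO reads at this site, 57 of 68 in set 1 and 7 of 8 in set 2 recurred in another pool of the lane with the same barcode. Without recurring reads 11 remained in set 1 DKO cells against 1018 in control cells, a ratio of 0.0686 (0.0342 to 0.123). In set 2, 1 remained in DKO cells against 122 in uninduced cells, a ratio of 0.0150 (0.000377 to 0.0852). In set 1 the same 57 reads left both pools, which weighs more on the smaller count, so 0.0686 adds nothing to 0.208. The site had 13 positions in set 1 DKO cells against 23 in control cells and 7 in set 2 DKO cells against 12 in uninduced cells. As a share of all miR-709 positions this was 1.21% against 0.693% in set 1, a ratio of 1.74 (0.809 to 3.58). That ratio lies on the other side of 1 from the ratio by reads. In set 2 the shares of positions were 1.29% in DKO and 1.62% in uninduced cells. A site with 1 fixed 5′ end has few possible positions. Why the set 1 ratios by reads and by positions differ was not tested.

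The Gm52861 site was the other one lower in both, at 0.328 of the control share in set 1 (0.137 to 0.679) and 0.0905 of the uninduced share in set 2 (0.0488 to 0.155). Without recurring reads the set 1 ratio was 0.563 (0.219 to 1.21) and was no longer called, while that of set 2 was 0.0304 (0.00620 to 0.0901). In set 1 this left 7 of 8 DKO and 79 of 80 control reads at the site, so the set 1 ratio moved through the smaller totals. This site also differed between the control cells of both sets, where its share in set 1 control cells was 0.0522 of that in uninduced cells (0.0401 to 0.0673).

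These were 2 of the 34 sites (5.88%) measured in both DKO comparisons, where 2.82% of the sites of other miRNAs were lower in both, and no site of either kind was higher in both. Both sites lie on chromosome 6, as do 6 of the 34. That chromosome also carries Mir200c and Mir141, at 124718322 and 124717914, which are 4.1 Mb from the LOC115490435 site and 77 Mb from the Gm52861 site. Mir200a, Mir200b and Mir429 lie on chromosome 4, and a link of these sites to the knocked-out genes was not tested.

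The Gm34755 site, 43858 bases from that of LOC115490435, went the other way. Its DKO share was 1.90 times control in set 1 (1.72 to 2.09), short of 2-fold, and 2.40 times uninduced in set 2 (2.00 to 2.89). Also called higher in set 2 DKO cells were sites in Gm35818 (2.40, 1.44 to 4.04), in Meikin (2.90, 1.31 to 6.75) and at chr16:42416344-42416384 outside genes (3.36, 1.62 to 7.38), the last 2 with 19 and 24 DKO reads. In set 1 these 3 sites lay below 1, at 0.726 (0.574 to 0.910), 0.434 (0.286 to 0.637) and 0.658 (0.511 to 0.839), so none of them was higher in both sets. In set 1 the higher sites were the chromosome 12 site of 119325151 to 119325195 (2.12, 1.85 to 2.42) and a site in the coronin gene Coro2b with 18 DKO and 5 control reads (11.8, 4.23 to 40.7). Sites in Gpc5, a glypican gene, and Ttll5, a tubulin-modifying enzyme gene, were lower in set 1 DKO cells, at 0.175 (0.0465 to 0.467) and 0.284 (0.126 to 0.560). Sites in Rap2a, with 1 DKO and 25 control reads, and in Limch1, with 0 and 20, were lower as well.

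**Figure D5:**
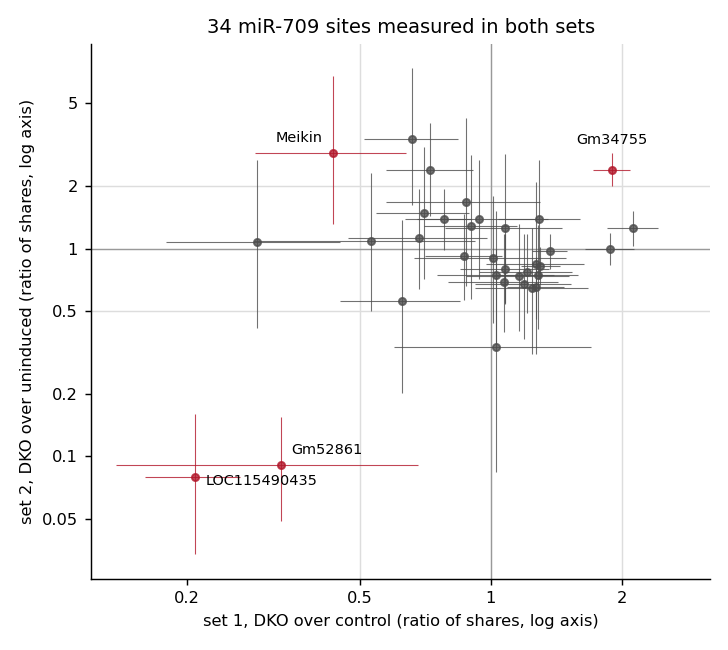
Ratio of a site's share of miR-709 reads in DKO over control cells of set 1 (horizontal, log axis) and DKO over uninduced cells of set 2 (vertical, log axis) for the 34 sites with at least 20 reads in both comparisons, with exact 95% counting intervals and lines at 0.5, 1 and 2. The sites in LOC115490435 (0.208 and 0.0791) and Gm52861 (0.328 and 0.0905) stand apart at the lower left, and red marks the 4 sites with a printed name.

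Between set 1 control and set 2 uninduced cells, 30 of 85 sites were higher and 6 lower, where 13.5% and 20.1% of the sites of other miRNAs were. Without recurring reads 18 of 84 were higher and 4 lower, and by positions 0 of 13 were higher and 7 lower, so the direction turned with the counting. The Sltm and chromosome 12 sites, which hold the nearly full positions, were among the lower ones, at 0.348 (0.305 to 0.397) and 0.379 (0.326 to 0.442). In set 1 control cells the leading positions of these 2 sites carried 255 and 256 of 256 barcodes. Against these controls the same sites had DKO ratios of 1.88 and 2.12, with 233 and 219 barcodes in use in DKO cells. What part the limit on barcodes has in these ratios was not tested. Sites in Gm35818 (2.57, 1.75 to 3.92), Syt6 (3.02, 1.76 to 5.6) and Meikin (3.5, 1.92 to 7.11) were among the higher ones.

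By gene, counting each position once, 10 genes could be compared in set 1, and 2 were higher in DKO cells, Gm34755 (2.09, 1.14 to 3.75) and Rn4.5s-ps2 (2.46, 1.05 to 5.63), where 4.73% of the target genes of other miRNAs were higher and 6.20% lower. All 10 ratios were above 1, from 1.09 to 2.46. In set 2 neither of 2 genes was called between DKO and uninduced cells, where 6.87% were higher and 8.40% lower among other targets. None of 4 was called between induced and uninduced cells, where 1.35% and 0.922% were. Between set 1 control and uninduced cells 3 of 6 were lower, Gm52861 (0.149, 0.0656 to 0.328), Rn4.5s-ps2 (0.336, 0.141 to 0.836) and LOC115490435 (0.429, 0.205 to 0.946), where 9.49% of other targets were higher and 9.51% lower. All 6 ratios were below 1, from 0.149 to 0.717.

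No change of a gene can be read from these calls. The positions of such a gene are mostly the 3′ ends of 1 site. In both comparisons with set 1 control cells (3318 miR-709 positions in all) the pool with fewer positions had the higher shares. Those pools held 1078 in set 1 DKO cells and 743 in uninduced cells. In set 2 DKO cells, with 543, the ratio to uninduced cells was 1.24 for Gm34755 and 0.380 for Gm52861. Whether the number of positions in a pool makes these ratios was not tested. In Rn4.5s-ps2, 516 reads lay on 12 positions in set 1 DKO cells and 1303 on 15 in set 1 control cells. By reads its site had a ratio of 1.30 (1.17 to 1.44) for DKO over control in set 1 and 0.806 (0.707 to 0.922) for set 1 control over uninduced cells. The LOC115490435 site had 1.07 (0.911 to 1.27) by reads in the second comparison. The Gm52861 site was lower by reads as well (0.0522).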

How the data were processed

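Values of other kinds than counts were deposited by the authors: whole-number mm10 positions, a line for each chimeric read, with its strand, barcode and miRNA. The tools named are cutadapt, Novoalign and bedtools, per the submitters' processing notes, and no versions are given. The 18 libraries were pooled by the authors into 5 files, and reads recovered per pool were 48662 (set 1 DKO), 161692 (set 1 control), 210003 (set 2 DKO), 419117 (set 2 induced) and 314071 (set 2 uninduced). A barcode occurs at most once per position, strand and miRNA in a file, and the way amplified copies were removed is not known here.

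From these, miR-709 entries were selected by name and targets were assigned to RefSeq genes (GRCm38) by their midpoint, and gene strands came from the RefSeq promoter table. Starts were counted from 0 in the files and are printed from 1. Shares have exact Clopper-Pearson 95% intervals and ratios conditional exact ones; PCR copies with different barcodes are not told apart from molecules, and a floor of 3 reads equals 0.00616%, 0.00186%, 0.00143%, 0.000716% and 0.000955% of the pools. Genes needed 20 positions, counted in each pool and added, and sites and miRNAs 20 reads in the compared pools. Python 3.11.15, pandas 2.3.3, numpy 2.4.6 and scipy 1.17.1 were used, and the counting and calling were tested on simulated data. Genes were named by these rules: the top 20 by mean share of positions, the 5 largest called ratios per direction, the 10 with the largest excess over other miRNAs, the 5 leading positions of each pool and the cited list; chromosome 18 genes were left out of the first rule. Other genes named at single sites were named after their values were seen. The miRNA, lists and rules were chosen with earlier results of these data known. Sequence features of the targets were not analysed here. Alternatives were positions counted once, recurring reads, marked read names, the leading position or undetermined barcodes left out, and other minimums.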

Additional observations from a re-analysis of the deposited data

Results flagged for a closer look

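The miR-709 site in Meikin, chr11:54407595-54407627, differed in direction between the sets. Its share in DKO cells was 0.434 of the control share in set 1 (0.286 to 0.637; 30 DKO and 227 control reads) and 2.90 times the uninduced share in set 2 (1.31 to 6.75; 19 DKO and 11 uninduced reads). Without reads that recurred in another pool of the lane the ratios were 0.585 (0.351 to 0.927) and 3.66 (1.56 to 9.25). The difference between the sets was not tested, and each pool is 1 sample.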

How the results depend on the processing

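No paired analysis was possible because the libraries of each group are pooled in 1 file with no library columns, and for the same reason no library could be left out. Counting each site once and the site alternatives were chosen after seeing the data. The ratio of miR-709 shares in set 1, DKO over control, was 0.600 without recurring reads and 1.05 with each site once. For the first of these values the same number of reads leaves both pools of set 1, which differ in size. In set 2, DKO over uninduced turned to 1.04 with each position once and 1.11 with each site once, and was 0.822 without recurring reads. Induced over uninduced was 0.987 without recurring reads and 0.985 with each site once. Set 1 control over uninduced was 9.84 by positions, 10.4 by sites, 13.4 without recurring reads, 12 without marked names and 12.2 without the leading position. Counting every read, the share outside genes was 47.0% (set 1 DKO), 43.8% (set 1 control), 40% (set 2 DKO), 38.5% (induced) and 37.1% (uninduced). The 10 leading positions, joined into sites, held 56.1%, 44.1%, 59.1%, 60.1% and 60.7% in that order, and without recurring reads 10.2%, 9.53%, 18.7%, 15.5% and 14.8%. Genes: with at least 50 positions 1 gene was higher in set 1 DKO cells, and no gene could be compared in the other 3 comparisons. Counting every read, 12 of 53 genes were lower in set 1 DKO cells. In set 2 DKO cells 3 of 16 were higher and 2 lower. In set 1 control over uninduced cells 16 of 52 were higher and 5 lower, and at least 10 positions gave 7 of 33 lower. The shares for genes and sites of other miRNAs are given above for the main setting only. Sites: set 1 DKO had 1 of 57 higher at 50 reads, and 5 of 19 higher and 0 lower by positions. Without recurring reads it had 6 of 87 higher and 4 lower. Set 2 DKO had 2 of 18 higher at 50 reads, and 0 of 5 higher and 0 lower by positions. Induced cells had 1 of 42 lower without recurring reads. Set 1 control over uninduced cells had 0 of 13 higher by positions. It had 18 of 84 higher without recurring reads and 3 of 53 lower at 50 reads. In the other 40 cases the value moved by no more than 1.5 times or its counting interval, but a like count can be a different share. Genes higher in set 1 DKO cells were 2 of 10, and 2 of 40 with at least 10 positions. Sites lower in set 1 control over uninduced cells were 6 of 85, and 7 of 13 by positions. The cause of these moves was not tested. The pools held 2017 (set 2 DKO) to 19996 (set 1 control) miR-709 reads, and sites and genes under the minimum in a pair of pools could not be compared.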
